A study of Bos taurus with 8 samples.

Results

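Transcripts of collagens and stromal matrix proteins were examined in the lactating udder of 4 Holstein cows (Bos taurus), biopsied after 12 h of milk accumulation, when the gland is called full, and at 0 h, just after milk removal, when it is called empty. With 1 biopsy per cow and state, 8 RNA samples on 8 single-colour arrays form 4 pairs. The group comprised every measured gene with a collagen alpha chain symbol (COL, a number, A, a number) together with DCN, LUM, BGN, FN1, SPARC, FBN1, ELN, POSTN, FBLN1, LOX, CCDC80 and VIM. It held 35 of the 9155 genes measured, 23 collagen chains and 12 other genes. Breed and lactating state are the same for all 8 samples. The labels name neither the order of sampling nor the side of the udder, and an effect of either cannot be told apart from that of milk accumulation.

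Collagens are trimers of chains that wind around each other in a triple helix. Fibrillar types give tissue its tensile strength, network types build the basement membrane under the epithelium, and others sit on fibril surfaces or span the cell membrane. In the udder these proteins are made mainly by the fibroblasts, vessel walls and myoepithelial cells that surround the milk-secreting alveoli, and the stroma is a minor part of a gland in full lactation. Small leucine-rich proteoglycans such as decorin bind collagen fibrils, fibronectin and fibrillin form fibres that cells grip, and vimentin is the intermediate filament of mesenchymal cells.

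Levels are log2 signals after RMA, a method that corrects background, equalizes the distributions of the arrays and combines the probes of a probe set. A difference of 1 is thus a doubling, and a gene with several probe sets is given by its brightest one. Brightness depends on the probes, so levels are compared between arrays and not between genes. Over all 24016 probe sets the median level was 7.16. Of the 35 matrix genes, 22 had a mean level above it and 13 below it, where a probe set may carry little specific signal. Array medians lay between 7.08 and 7.24. The full arrays of cows 2 and 4 stood apart, since their correlations with the rest had medians of 0.969 and 0.9753 while the remaining 6 had 0.9856 or more. The 5′ minus 3′ difference of the actin control, a sign of RNA breakage where it is strongly negative, was -1.36 on the full array of cow 4 and between -0.07 and 0.07 on the other 7 arrays. Anything that rests on the full array of cow 4 carries that value, and its part in the results was not tested.

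No matrix gene passed the test of full against empty gland. Their median difference was 0.07 log2, beside -0.0036 over all genes, and 28 of the 35 were higher on average in full gland (80.0%), beside 48.6% of all genes. The average hid opposite movements in different animals. In cow 4 all 22 of the brighter matrix genes were higher in full gland, by 0.29 to 1.06 log2, while in cow 1 21 of these 22 were lower, with differences from -0.99 to 0.02. Cow 2 went mostly the way of cow 4, with 18 of the 22 higher, and cow 3 by small amounts the way of cow 1, with 18 lower. Of all 6200 genes above the median level, 50.8% were higher in cow 4, 66.4% lower in cow 1, 52.4% higher in cow 2 and 57.4% lower in cow 3. Both sets were taken by the mean over the 8 arrays, full arrays included, so the counts are a description. COL21A1 is among the 22 with an empty mean of 7.15, under the median level of 7.16. In a bulk biopsy, more matrix-producing cells and more RNA per cell cannot be told apart.

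**Figure D1:**
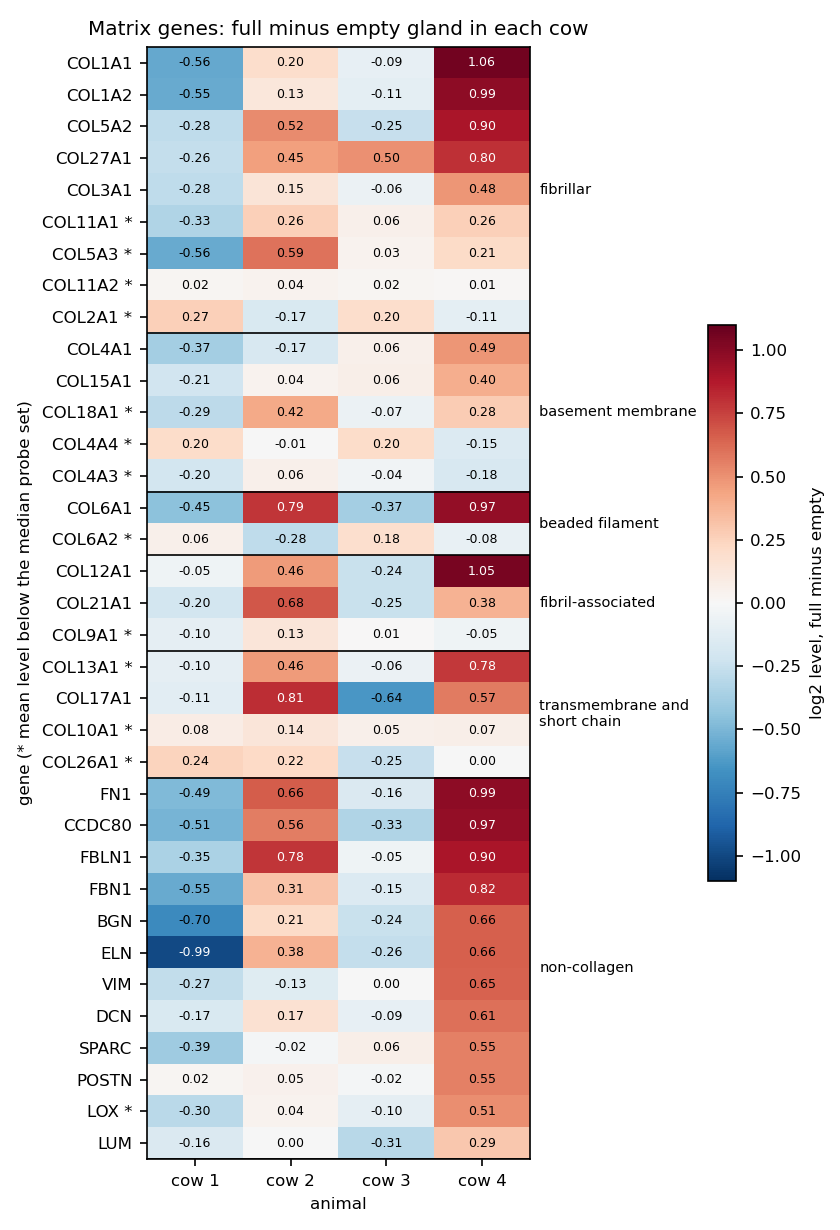
Full minus empty difference (log2) of each of the 35 matrix genes, 1 row per gene grouped by kind of protein and 1 column per cow, with red for higher and blue for lower in full gland. Cow 4 is red in all 22 genes with a mean level above the median, and cow 1 is blue in 21 of them, while most genes marked with an asterisk, whose level is below the median, stay pale.

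The test was limma with state and cow as terms, adjusted by the Benjamini-Hochberg method over all 24016 probe sets. It called 0 of the 35 matrix genes and 0 probe sets in all (0% called), with a smallest adjusted p of 0.993. At an unadjusted p under 0.05 it called 0 matrix genes and 256 of 9155 genes, which is 2.8%. Taking cows 1 to 4 in turn, the matrix genes had median differences of -0.27, 0.20, -0.06 and 0.55. Over all genes these medians were -0.05, 0.03, -0.02 and 0.02. Leaving out cow 4 put the matrix median at -0.0036, and leaving out cow 1, 2 or 3 put it at 0.21, 0.05 or 0.12. Without cows 2 and 4, whose full arrays stood apart, it was -0.16, with 29 of the 35 genes lower on average in the full glands of cows 1 and 3. Cows 1 and 3 are those with the negative medians above, so the lower direction follows from this choice of cows and is no separate result. At an unadjusted p under 0.05 that pair of cows gave 13 matrix genes, 12 of them lower, beside 9.65% of all genes, and none passed (smallest limma adjusted p = 0.514). These p values rest on the arrays of cows 1 and 3 alone.

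Differences of more than 0.5 log2 (1.41-fold) within a cow took up a higher share of the matrix genes than of all genes, upward in cows 2 and 4 and downward in cow 1. In cow 4, 19 of the 35 (54.3%) were higher in full gland by more than 0.5, where 9.12% of all genes were. In cow 2 these were 8 (22.9%), against 10.8% of all genes. In cow 1, 7 of the 35 (20.0%) were lower by more than 0.5, where 1.87% of all genes were. In cow 3 the count was 1 higher, COL27A1, and 1 lower, COL17A1, where 0.502% of all genes were higher and 0.644% lower. Each cow has a single pair of arrays, so a difference between cows in the response to filling could not be tested.

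**Figure D2:**
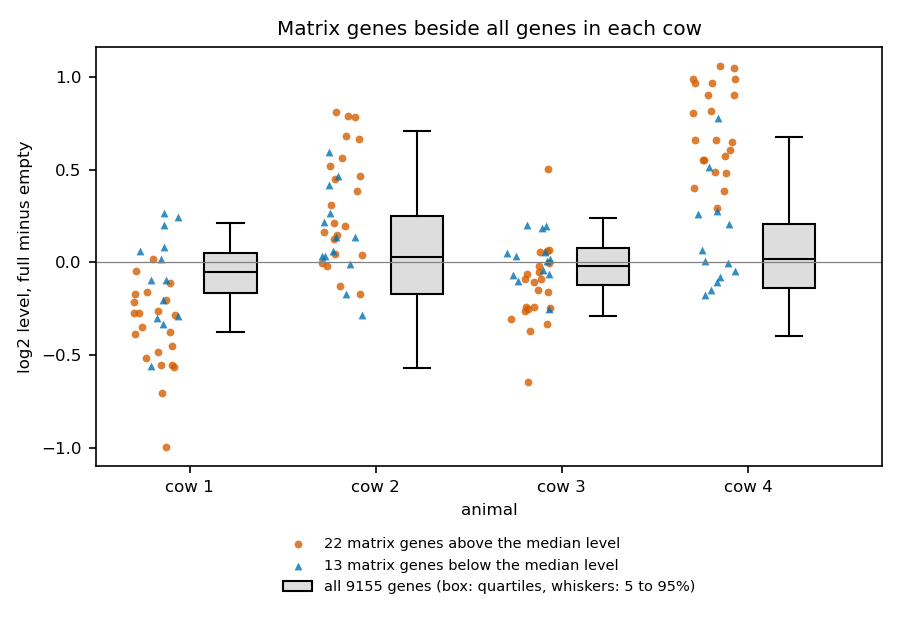
Full minus empty difference (log2) in each cow, with points for the matrix genes (circles above and triangles below the median level) to the left of a box for all 9155 genes (quartiles, with whiskers from 5 to 95%). In cow 4 all 22 circles lie above 0 and 17 of them above 0.5, while the box is centred at 0.02, and in cow 1 21 circles lie below 0.

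The fibrillar collagens showed the contrast between animals. COL1A1 and COL1A2, the alpha 1 and alpha 2 chains of type I collagen, make up the most abundant fibre of connective tissue. COL1A1 read 11.24, 12.34, 11.12 and 12.96 in the full glands of cows 1 to 4, against 11.80, 12.14, 11.22 and 11.90 in their empty glands. Both the lowest and the highest of the 8 values are from full gland, and the groups overlap. COL1A1 averaged 11.92 ± 0.89 in full gland, against 11.77 ± 0.39 in empty gland (SD, n = 4 cows each), a difference of 0.15 ± 0.25 (limma's moderated SE, as for all such differences below) with a 95% interval of -0.47 to 0.77 (limma adjusted p = 0.993).

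COL1A2 followed COL1A1 in every cow. Its levels were 11.23, 12.23, 11.17 and 12.79 in full gland and 11.78, 12.10, 11.28 and 11.80 in empty gland of cows 1 to 4, so that cow 4 was 0.99 higher and cow 1 differed by -0.55. Its second probe set had the same sign as the first in each of the 4 cows, with 0.72 in cow 4 and -0.23 in cow 1. A second, dimmer probe set of COL1A1, with a mean level of 6.29, differed by -0.04 in cow 4 and did not share the contrast.

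COL3A1, the single chain of type III collagen that is copolymerised with type I in soft tissue, had its differences in the same order of cows on a smaller scale. It measured 12.08, 12.97, 12.12 and 13.11 in full gland against 12.36, 12.83, 12.18 and 12.63 in empty gland of cows 1 to 4. Cows 2 and 4 lay above cows 1 and 3 in both states, and the state difference was 0.07 ± 0.13 (limma adjusted p = 0.993). Its second probe set differed by -0.41, 0.27, -0.16 and 0.83 in cows 1 to 4.

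Of the minor fibrillar chains, COL27A1 had the highest mean difference of all 35 genes and the smallest unadjusted p (0.0770). COL27A1 encodes a fibrillar chain best known from cartilage. It read 7.52, 8.57, 7.76 and 8.50 in full gland and 7.79, 8.12, 7.26 and 7.69 in empty gland of cows 1 to 4, a difference of 0.37 ± 0.17 (95% interval -0.06 to 0.80, limma adjusted p = 0.993). It was higher in full gland in cows 2, 3 and 4 and lower in cow 1, and the groups overlap. Its second, dimmer probe set was 0.10 higher on average.

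COL5A2, a type V chain that helps to set fibril diameter, differed by -0.28, 0.52, -0.25 and 0.90 in cows 1 to 4. The remaining 4 fibrillar chains, COL2A1, COL5A3, COL11A1 and COL11A2, all had mean levels below the array median. Their mean differences lay between 0.02 and 0.07, and COL11A1 had 7 probe sets with mean differences between -0.04 and 0.21. All 9 fibrillar chains were higher on average in full gland, none passing the test, with a median of 0.07 that was -0.28 in cow 1 and 0.48 in cow 4.

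Basement membrane chains had a median difference of 0.28 in cow 4, where the fibrillar chains had 0.48, and the difference between these kinds was not tested. COL4A1, a chain of the type IV network under epithelium and endothelium, read 11.31, 11.30, 11.40 and 11.94 in full gland and 11.69, 11.47, 11.34 and 11.46 in empty gland of cows 1 to 4. The full gland of cow 4 was above the other 7 arrays, which lay within 11.30 and 11.69, and the mean difference was -0.0011 ± 0.15. COL15A1, which links the basement membrane to the fibrils beneath it, was 0.07 higher on average and 0.40 higher in cow 4. Its second probe set, with a mean level of 10.05, differed by -0.29, -0.40, 0.28 and 0.64 in cows 1 to 4. In cow 2 the first probe set differed by 0.04, so the sign there depends on the probe set. COL18A1, the precursor of endostatin, was 0.09 higher on a level below the median. COL4A3 and COL4A4, chains of a network known from kidney, were also below the median level, at -0.09 and 0.06. COL4A3 was the one matrix gene whose levels ranged more widely over the empty arrays (0.26) than over the full arrays (0.15). Over the 5 basement membrane genes the median was 0.06, with 3 higher and 2 lower and none passing.

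COL6A1, a chain of the type VI microfilaments around cells, differed by -0.45, 0.79, -0.37 and 0.97 in cows 1 to 4, higher in cows 2 and 4 and lower in cows 1 and 3. Its 2 further probe sets did not follow it in cows 1 to 3. They differed by 0.21 and 0.19 in cow 1, -0.58 and -0.51 in cow 2, and 0.26 and 0.40 in cow 3. The pattern in those cows thus depends on the probe set, while all 3 probe sets were higher in cow 4. The partner chain COL6A2 had a level below the median (6.10 in full and 6.12 in empty gland) and a mean difference of -0.03 ± 0.10.

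Among chains that coat fibrils, COL12A1, a chain of load-bearing tissue such as tendon and ligament, was 1.05 higher in cow 4 and 0.46 higher in cow 2. COL12A1 read 8.74, 9.19, 8.81 and 10.04 in full gland against 8.79, 8.73, 9.05 and 9.00 in empty gland of cows 1 to 4. The full gland of cow 4 stood above the other 7 arrays, and the mean difference was 0.30 ± 0.22 (95% interval -0.23 to 0.84, limma adjusted p = 0.993). Its second probe set differed by -0.17, 0.65, 0.03 and 1.08 in cows 1 to 4. The third, the dimmest with a mean of 6.14, differed by 0.36, 0.09, 0.0029 and 0.14. COL21A1 differed by 0.15 on average, with 0.68 in cow 2 and 0.38 in cow 4, and COL9A1, a cartilage chain, by -0.00036.

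The list kept here for transmembrane and short chain collagens held 4 measured genes, with COL26A1 assigned to it. COL17A1, a hemidesmosome collagen that ties basal epithelial cells to the basement membrane, read 8.99, 10.10, 8.46 and 9.87 in full gland and 9.10, 9.29, 9.11 and 9.29 in empty gland of cows 1 to 4. The empty values lay within 0.19 of each other while the full values spanned 1.64, and the mean difference was 0.16 ± 0.25. A second COL17A1 probe set, with a mean level of 8.11, differed by 0.13, 0.30, -0.12 and 0.84 in cows 1 to 4. The first differed by -0.11, 0.81, -0.64 and 0.57. The sign in cow 1 and the size of the fall in cow 3 thus depend on the probe set. COL13A1, a membrane collagen of adhesive junctions, was 0.27 ± 0.17 higher, with 0.78 in cow 4 and 0.46 in cow 2. COL10A1, a chain of hypertrophic cartilage, and COL26A1 were dim. COL10A1 was higher by 0.05 to 0.14 in each of the 4 cows, and so was COL11A2 by 0.01 to 0.04. These were the only 2 of 35 genes with a direction shared by all cows, beside 3.59% of all genes that were higher in all 4 cows. No matrix gene was lower in all 4, beside 7.11% of all genes.

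The 12 matrix genes that are not collagens were all higher in the full gland of cow 4, 11 of them by more than 0.5 log2, and 11 of the 12 were lower in cow 1. FN1, fibronectin, whose fibres cells pull on through integrins, had the widest spread over full arrays after POSTN. FN1 read 10.40, 11.89, 10.60 and 12.37 in full gland and 10.89, 11.23, 10.76 and 11.38 in empty gland of cows 1 to 4. The full values of cows 2 and 4 were above all 4 empty values and those of cows 1 and 3 were below all 4. The mean difference was 0.25 ± 0.26 (95% interval -0.38 to 0.88, limma adjusted p = 0.993). A second FN1 probe set, with a mean level of 5.58, differed by 0.01 in cow 4.

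FBLN1, fibulin 1, a glycoprotein of elastic fibres and basement membranes, split the cows the same way, with 10.49, 11.81, 10.21 and 11.90 in full gland against 10.84, 11.02, 10.27 and 11.00 in empty gland. Cows 2 and 4 exceeded every empty value in full gland, and the mean difference was 0.32 ± 0.23. A second FBLN1 probe set, with a mean level of 8.15, differed by -0.30, 0.05, -0.13 and 1.22 in cows 1 to 4. The rise in cow 2 thus depends on the probe set, while both were higher in cow 4. The fibre proteins FBN1, fibrillin 1, and ELN, elastin, differed by 0.82 and 0.66 in cow 4 and by -0.55 and -0.99 in cow 1. Of all 35 genes in all 4 cows ELN had the most negative difference, with 7.29 in full against 8.28 in empty gland of cow 1. A second, dimmer ELN probe set, with a mean level of 6.35, differed by -0.06 in cow 1 and -0.12 in cow 4 and did not share the contrast. LOX, the oxidase that cross-links collagen and elastin, had a level below the median and was 0.51 higher in cow 4 and -0.30 different in cow 1.

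The proteoglycans DCN, LUM and BGN, which bind collagen fibrils, differed by 0.13, -0.04 and -0.02 on average. DCN, decorin, read 11.92, 12.10, 11.57 and 12.27 in full gland and 12.09, 11.94, 11.67 and 11.67 in empty gland of cows 1 to 4. BGN, biglycan, had 8.17, 9.17, 8.08 and 9.79 in full gland and 8.87, 8.96, 8.32 and 9.14 in empty gland. LUM, lumican, was narrower, at 11.30, 11.48, 10.92 and 11.60 in full against 11.46, 11.48, 11.23 and 11.31 in empty gland. All 3 had their lowest full value in cow 3 and their highest in cow 4, and the groups overlap for each.

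SPARC, a collagen-binding glycoprotein made by cells that secrete collagen, read 11.94, 12.44, 11.88 and 12.77 in full gland and 12.33, 12.46, 11.82 and 12.22 in empty gland of cows 1 to 4, a difference of 0.05 ± 0.15. VIM, the mesenchymal intermediate filament, read 12.02, 12.04, 11.81 and 12.68 in full gland and 12.29, 12.17, 11.81 and 12.03 in empty gland. Here the full gland of cow 4 alone lay above all empty values, and VIM differed by -0.13 in cow 2, and its mean difference was 0.06 ± 0.16 (95% interval -0.33 to 0.46, limma adjusted p = 0.993). CCDC80, a secreted protein that binds matrix, differed by -0.51, 0.56, -0.33 and 0.97 in cows 1 to 4. Its second, dimmer probe set, with a mean level of 6.61, differed by -0.09, -0.58, 0.14 and 0.53, with the opposite sign in cows 2 and 3.

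**Figure D3:**
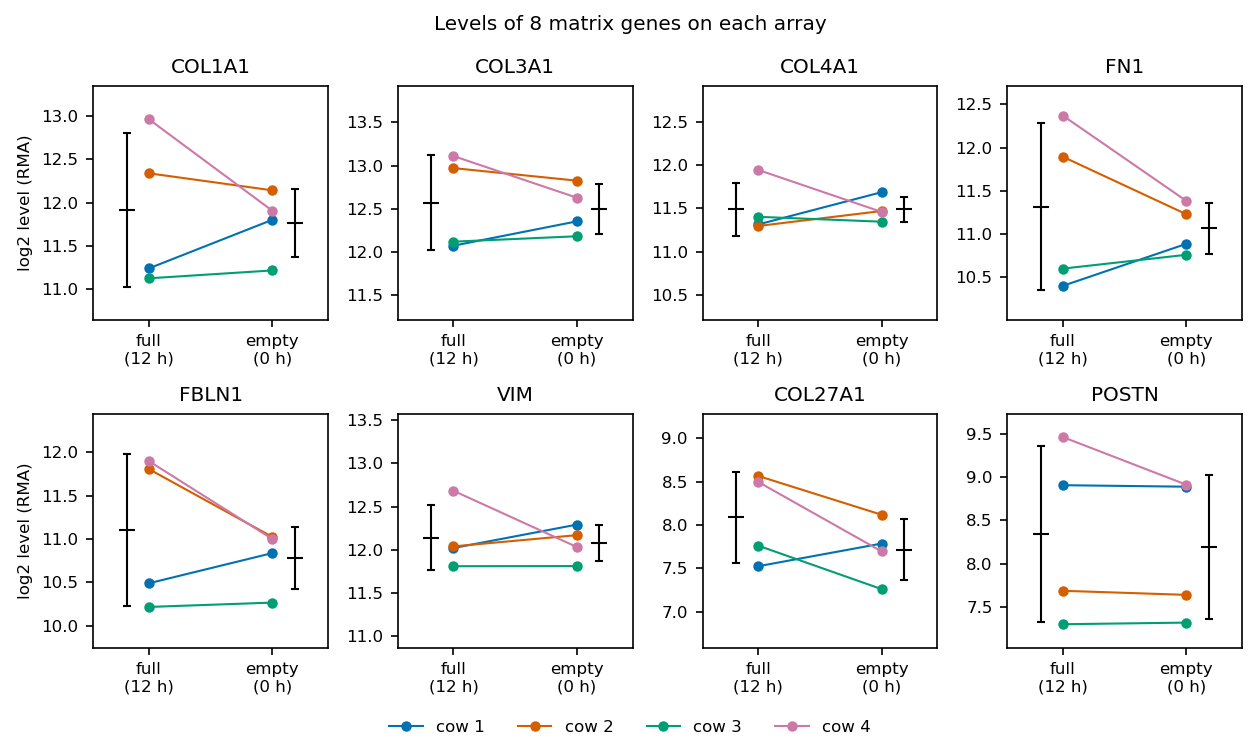
Log2 level of 8 matrix genes on each array, with full gland (12 h) to the left of empty gland (0 h), a line per cow, and the mean ± SD of the 4 arrays in black. The y axes all span the same number of log2 units. Full glands of cows 2 and 4 lie highest for COL1A1, COL3A1, FN1 and FBLN1, and POSTN separates cows 1 and 4 from cows 2 and 3 in both states.

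The spread over animals was wider in full than in empty gland. The range over the 4 cows was wider on full arrays for 34 of the 35 matrix genes, the exception being COL4A3, and for 74.8% of all genes. The median SD over cows was 0.42 in full and 0.16 in empty gland for matrix genes, and 0.20 in full and 0.13 in empty gland over all genes. Among the 22 brighter matrix genes the full array of cow 4 was the highest of the 8 arrays for 18. It was so for 17.9% of all genes above the median level, and both sets were taken by a mean that includes that array. The deviation of these 22 genes from their own means had a median of -0.42, 0.47, -0.53 and 0.75 on the full arrays of cows 1 to 4, and of -0.02, 0.13, -0.33 and -0.0063 on the empty arrays. The empty array of cow 4 thus lay near the average, and its full array was the one that stood high.

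Further probe sets of the same genes, measured on the same arrays, were set beside the brightest ones. Of 30 further probe sets, 10 had a mean over the 8 arrays above the median level, and these 10 are given as a description, since that mean includes the full array of cow 4. They were higher in the full gland of cow 4 by 0.39 to 1.22. Of the 10, 7 were lower in full gland in cow 1, 5 were higher in cow 2 and 6 were lower in cow 3. The second probe set of COL12A1 and 1 of COL6A1 were among the 10 with empty means of 6.99 and 7.13, under the median level. The 20 below the median level had a median difference of 0.0033 in cow 4, and 11 of them were higher.

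Differences between the animals themselves were tested with an F-test in limma that takes both arrays of each cow. POSTN, periostin, a matricellular protein of fibrous tissue, passed (limma adjusted p = 0.0301), the only 1 of 35 matrix genes to do so (2.86%), beside 0.481% of all genes called. POSTN read 8.91, 7.69, 7.30 and 9.46 in full gland and 8.89, 7.64, 7.32 and 8.91 in empty gland of cows 1 to 4. Both biopsies of cows 1 and 4 lay above both biopsies of cows 2 and 3, while full minus empty gland was 0.02, 0.05 and -0.02 in cows 1 to 3 and 0.55 in cow 4. The call did not hold without cow 1 (adjusted p = 0.102), cow 3 (0.191) or cow 4 (0.0661) and held without cow 2 (0.0406), where 3 animals remained. Since the 2 biopsies of a cow come from the same animal, the comparison is of these 4 animals.

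The other matrix genes did not pass that test. At an unadjusted p under 0.05 there were 10 of 35 (28.6%), beside 16.9% of all genes. After POSTN the smallest unadjusted p values were those of COL3A1, COL13A1, FBLN1, BGN and FN1, with limma adjusted p from 0.230 to 0.304. The cow means of COL3A1 were 12.22, 12.90, 12.15 and 12.87 for cows 1 to 4, and those of FN1 were 10.64, 11.56, 10.68 and 11.88. POSTN thus ordered the cows differently, with cow 1 next to cow 4 rather than to cow 3.

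Genes that make and surround collagen were looked at in lists of their own, where none passed the test of state. Of 23 measured genes for collagen processing, 13 were higher and 10 lower, with a median of 0.0089 (-0.21 in cow 1 and 0.24 in cow 4). SERPINH1, the collagen chaperone HSP47, was 0.32 ± 0.24 higher, and differed by -0.45, 0.65, 0.09 and 1.00 in cows 1 to 4. PCOLCE2, an enhancer of procollagen cleavage, was 0.32 ± 0.21 higher with 0.85 in cow 4, and P4HB, a subunit of prolyl 4-hydroxylase that also serves as a general disulphide isomerase, differed by -0.14 and by -0.18 in cow 4.

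Among 30 other matrix genes 21 were higher and 9 lower, with a median of 0.06 that was -0.30, 0.28, -0.13 and 0.46 in cows 1 to 4. In cow 4, 27 of the 30 were higher. LTBP1, which tethers latent TGF-beta to the matrix, was higher in all 4 cows, by 0.16, 0.29, 0.30 and 0.43. Of all genes, 3.59% were higher in all 4 cows. Its mean level was 7.12 in full and 6.83 in empty gland, a difference of 0.29 ± 0.07 that did not pass (limma adjusted p = 0.993). The list of 14 TGF-beta pathway genes, which also holds LTBP1, had a median of 0.12, with 9 higher and 5 lower. ITGB6, an integrin chain of epithelium that activates latent TGF-beta, was 0.54 ± 0.18 higher, by 0.12, 0.87, 0.13 and 1.02 in cows 1 to 4, and TGFBR2, a receptor, differed by -0.06 (limma adjusted p = 0.993 for both). LTBP1 and ITGB6, with mean levels of 6.97 and 6.72, lie below the median level, where a probe set may carry little specific signal.

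Markers of several other cell types moved with the matrix genes in cow 4, some of them in cows 1 and 2 too, and their part in the result was not tested. Fibroblast markers outside the group had a median of 0.35 in cow 4, with 9 of 12 higher, and of -0.16 in cow 1, with 1 of 12 higher. Their mean level over the list lay between 8.43 and 9.13 on full arrays and between 8.51 and 8.75 on empty arrays. The list shares DPT, MFAP5 and TNXB with the other matrix genes above. Smooth muscle and pericyte markers had a median of 0.68 in cow 4 (8 of 9 higher), with mean levels of 8.60 to 9.78 on full and 8.61 to 8.99 on empty arrays. Myoepithelial markers had a median of 0.48 in cow 4 and 0.42 in cow 2 (7 of 7 higher in each), against -0.23 in cow 1 (1 of 7 higher), with 8.75 to 9.74 on full and 8.88 to 9.18 on empty arrays. Leukocyte markers had a median of 0.72 in cow 4 and 0.37 in cow 2 (8 of 10 higher in each), against -0.19 in cow 1 (0 of 10 higher), with 7.52 to 8.22 on full and 7.59 to 7.80 on empty arrays. Endothelial markers were at 0.16 in cow 4 and -0.22 in cow 2, and adipocyte markers at 0.02 in cow 4.

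Luminal secretory markers, which define the labelled tissue, were all 14 above the median level. Their median difference was 0.05, -0.03, 0.0014 and -0.01 in cows 1 to 4, and PAEP, beta-lactoglobulin, stood at 14.39 in full and 14.38 in empty gland. The list holds very bright genes such as CSN2, LALBA and PAEP, with mean levels of 13.84, 14.20 and 14.39. KRT8 and KRT18 had mean levels of 8.10 and 8.41. Whether a change could show at the highest levels was not tested. Of the 14, 3 were more than 0.5 higher in the full gland of cow 4. These were the luminal keratins KRT18, at 1.36 in cow 4 and 1.19 in cow 2, and KRT8, at 1.21 in cow 4 and -0.72 in cow 1, and the epithelial cadherin CDH1, at 0.57 in cow 4. EPCAM, an epithelial adhesion molecule, was 0.81 higher in cow 2. Skeletal muscle markers were mostly dim, 2 of 7 above the median level, with a median of 0.17 in cow 4 (4 higher and 3 lower). ACTA1, skeletal muscle actin, read 7.81 on the full array of cow 4 against 6.03 on its empty array, and between 5.89 and 6.01 on the arrays of the other cows. CKM, muscle creatine kinase, was 0.55 higher in the full gland of cow 4. TNNC2, MB and TNNT3 of the same list differed by -0.25, -0.15 and -0.07 there.

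**Figure D4:**
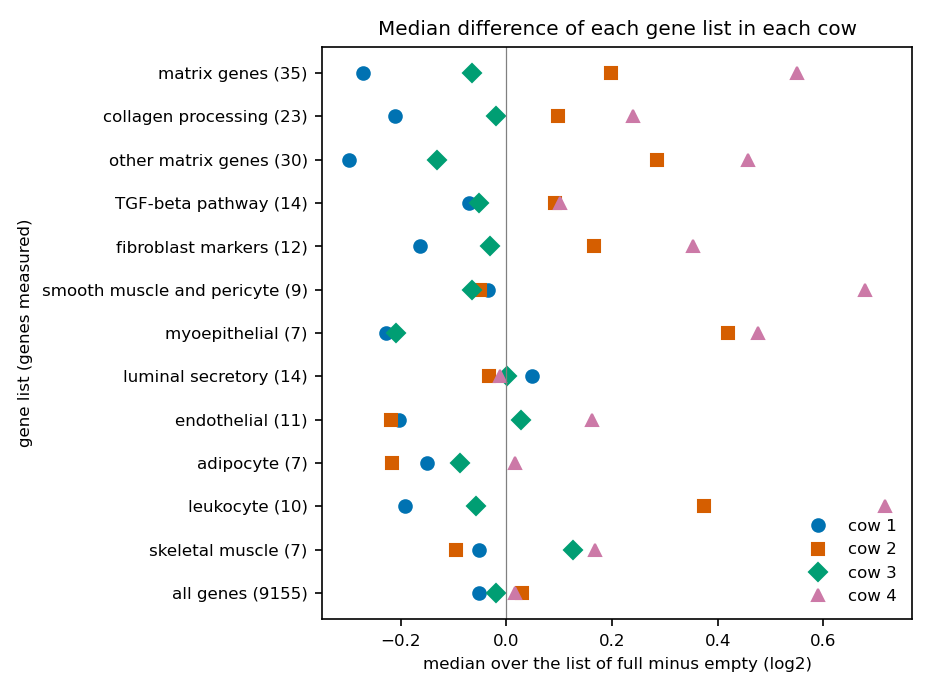
Median over each gene list of the full minus empty difference (log2, x axis) in cows 1 to 4 (1 symbol per cow), with the number of genes measured in brackets. The matrix genes run from -0.27 in cow 1 to 0.55 in cow 4. The same order of cows holds for the medians of other matrix genes, collagen processing, the TGF-beta list and fibroblast, myoepithelial and leukocyte markers. Medians of luminal secretory markers and all genes stay near 0, while the luminal keratins KRT8 and KRT18 were 1.21 and 1.36 higher in cow 4.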

How the data were processed

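Total RNA from each biopsy was primed with oligo(dT), amplified to biotinylated cRNA and hybridised, per the labels' protocols. The deposited values are log2 signals per probe set that the authors made with RMA, per the submitters' processing notes, with no version given. The log2 scale was read from the values. Of 24128 probe sets, 112 platform controls were left out. Of the remaining 24016, 13292 had 1 symbol in the platform annotation, 86 several and 10638 none. The numbers and symbols of all 35 matrix genes matched RefSeq (ARS-UCD2.0). The probe set with the highest mean over 8 arrays stood for a gene, and 21 of the 35 had more than 1.

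The model was limma 3.58.1 in R 4.3.3 on the deposited values, two-sided, with state and cow as fixed terms (3 residual and 2.81 prior degrees of freedom), Benjamini-Hochberg adjustment over 24016 probe sets and a threshold of 0.05. Cow is a block since each description gives the animal and its state. Deviations from group means correlated at 0.319 to 0.597 within cows. The model was tested on simulated data. Python 3.11.15 with pandas 2.3.3 made the tables. Precision is limited by the 8 arrays.

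The 35 genes, the lists and the tests were chosen with earlier results of these data known. Genes were named by smallest p in each direction, smallest p between cows, brightness and largest difference per kind of protein, with COL1A1, COL1A2, COL3A1, VIM and FN1 always named. ELN in cow 1 and the dimmer probe sets were singled out after their values were seen. As alternatives, cow was dropped or made a random term, arrays were median-centred or quantile-normalized again, dim probe sets were removed, an intensity trend with robust prior was used, a gene's probe sets were averaged, and cows were left out.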

Additional observations from a re-analysis of the deposited data

Results flagged for a closer look

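Among 70 sets of 4 arrays (35 genes in full and in empty gland), 3 held an array far from its group by Dixon's test at the 95% level, where chance gives about 1 in 20. COL4A1 was at 11.94 in the full gland of cow 4, against 11.30 to 11.40 in the other 3 full glands. COL5A3 was at 6.98 in the empty gland of cow 1, against 6.72 to 6.76 in the other empty glands, on a level below the array median. COL9A1 was at 5.53 in the full gland of cow 2, against 5.41 to 5.42 in the others, also on a level below the array median.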

How the results depend on the processing

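No alternative called a matrix gene between full and empty gland, and 0 probe sets passed in each of the 12. Without the replicate block the count of matrix genes called was 0, as at an unadjusted p under 0.05, and the block changed no call. At an unadjusted p under 0.05 there was 1 matrix gene after median centring, 0 to 2 with a cow left out, and 13 without cows 2 and 4, of which 12 were lower in full gland. The median of the matrix genes lay between -0.0036 and 0.21 with a cow left out. Between cows, 0 to 1 matrix genes and 13 to 131 probe sets were called with a cow left out, against 105 with all cows, 208 after median centring and 248 with the intensity trend and robust prior.

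Without cows 2 and 4 the direction turned for COL1A1 (-0.33), COL1A2 (-0.33), COL3A1 (-0.17), COL12A1 (-0.15), COL13A1 (-0.080), COL6A2 (0.12), DCN (-0.13), FBLN1 (-0.20), FN1 (-0.32), POSTN (-0.00069), SPARC (-0.16) and VIM (-0.14). In that setting every role group and pathway list had a median below 0: -0.04 for transmembrane and short chain collagens, -0.12 for basement membrane, -0.14 for beaded filament, -0.15 for fibril-associated and -0.17 for fibrillar collagens, -0.22 for non-collagen members, -0.035 for the TGF-beta list, -0.10 for collagen processing and -0.26 for other matrix genes. Without cow 4 alone, medians were -0.0020 for fibrillar, -0.035 for basement membrane and -0.012 for beaded filament collagens. They were -0.12 for non-collagen members, -0.054 for collagen processing and -0.045 for other matrix genes. Medians stayed above 0 there for fibril-associated (0.058) and transmembrane and short chain collagens (0.079) and the TGF-beta list (0.062). Without cow 2 alone, the fibril-associated median was -0.023. After median centring, the collagen processing median was -0.0083. COL4A1 turned to 0.015 after repeated quantile normalization and to 0.0055 with its probe sets averaged. With a cow left out, values that turned ranged from -0.25 to 0.21 for BGN, -0.15 to 0.39 for COL1A1, -0.18 to 0.34 for COL1A2, -0.066 to 0.19 for COL3A1, -0.16 to 0.12 for COL4A1, -0.10 to 0.055 for COL6A2, -0.033 to 0.23 for DCN, -0.29 to 0.26 for ELN, -0.16 to 0.044 for LUM, -0.11 to 0.20 for SPARC and -0.13 to 0.17 for VIM. None of these passed in any setting, and the cause was not tested. Arrays have no read depth, and signal limits the 13 matrix genes below the median level.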

Other observations

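THBS4, a thrombospondin of tendon and muscle matrix, also differed between cows (limma F-test, adjusted p = 0.0454). It read 5.78, 7.57, 7.47 and 7.99 in full gland and 6.42, 7.71, 7.56 and 7.96 in empty gland of cows 1 to 4, so that cow 1 was the low animal in both states, while POSTN was high there. Among fibroblast markers, singled out after their values were seen, the growth factor receptor PDGFRA and the matrix protein DPT were 1.14 and 0.90 higher in the full gland of cow 4 and differed by -0.56 and -0.31 in cow 1. CFD, CLEC3B and THY1 of the same list differed by -0.18, -0.09 and -0.05 in cow 4. DES, desmin of muscle and pericytes, also singled out, was 2.94 higher in the full gland of cow 4 and differed by -0.47 in cow 1.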
